A study of Homo sapiens with 9 samples.

Results

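Receptors for glutamate, GABA, glycine and acetylcholine were followed through PTBP1 knockdown in U251 cells, an established human glioblastoma line. The genes were chosen by symbol: AMPA (GRIA1 to GRIA4), kainate (GRIK1 to GRIK5), NMDA (the GRIN genes), delta and metabotropic glutamate receptors, the GABR subunits of GABA-A receptors, GABBR1 and GABBR2 of the GABA-B receptor, the GLRA and GLRB genes of glycine receptors, and the CHRN genes of nicotinic receptors. This gave 67 of the 22295 entries of the expression table, of which 19932 have a gene symbol. RNA-seq was run on 9 libraries in 3 groups of 3. The controls (sh-Luci-3d) carried a lentivirus whose sh-RNA targets luciferase for 3 days, the early knockdown (sh-Ptbp1-3d) an sh-RNA lentivirus against PTBP1 for 3 days, and the late knockdown (sh-Ptbp1-7d) the latter for 7 days. For reprogramming, the study's methods describe a neuronal induction medium with forskolin, dorsomorphin and the supplements N2 and B27 from 2 days post infection (dpi). They do not say which medium the sequenced cultures were in. If those cultures followed this schedule, the late knockdown had spent more days in it. The 9 libraries hold no luciferase control of 7 dpi. In the late knockdown against the controls, knockdown, time and days in the medium cannot be told apart. The late and the early knockdown carry the same sh-RNA, and between them the duration of the knockdown, time and days in the medium cannot be told apart.

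These receptors fall into a few structural families. AMPA, kainate, NMDA and delta subunits assemble as tetramers around a channel that carries excitatory current when glutamate binds, while metabotropic glutamate receptors and the GABA-B receptor act through G proteins. GABA-A, glycine and nicotinic receptors are pentamers of the Cys-loop family, the first pair passing chloride and the last passing cations. PTBP1 is an RNA-binding protein that represses neuron-specific exons in non-neuronal cells. The values below are read per gene and say nothing of which exon was used.

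For the called genes whose promoters RefSeq holds, 250 bases before the start farthest upstream were read on GRCh38.p14 (48 of the 67 genes matched, and 6 of the 8 called). The following 4 are shown because they belong to the gene that fell most and to the called genes of the inhibitory receptors that rose, with matches to a pair of motifs in capitals. The motifs are TGACGTCA, the full cAMP response element, which reads the same on both strands, and GAAA, any 2 bases, GAAA, a core of the interferon-stimulated response element, sought on both strands. The letters run 5′ to 3′ on the strand of the gene, namely chrX:152637645-152637894 on the plus strand, chrX:14529048-14529297 on the plus strand, chr4:157075900-157076149 on the plus strand and chr6:29628014-29628263 on the minus strand.
GABRQ: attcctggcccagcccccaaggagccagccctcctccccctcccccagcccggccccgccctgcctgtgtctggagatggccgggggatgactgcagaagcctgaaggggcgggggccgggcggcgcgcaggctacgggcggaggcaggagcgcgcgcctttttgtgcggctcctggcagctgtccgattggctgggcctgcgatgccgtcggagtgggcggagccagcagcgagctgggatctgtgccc
GLRA2: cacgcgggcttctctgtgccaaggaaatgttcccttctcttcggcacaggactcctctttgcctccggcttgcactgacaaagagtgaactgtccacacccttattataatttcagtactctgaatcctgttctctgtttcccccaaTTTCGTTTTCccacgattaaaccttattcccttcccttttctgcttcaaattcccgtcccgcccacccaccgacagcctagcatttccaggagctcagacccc
GLRB: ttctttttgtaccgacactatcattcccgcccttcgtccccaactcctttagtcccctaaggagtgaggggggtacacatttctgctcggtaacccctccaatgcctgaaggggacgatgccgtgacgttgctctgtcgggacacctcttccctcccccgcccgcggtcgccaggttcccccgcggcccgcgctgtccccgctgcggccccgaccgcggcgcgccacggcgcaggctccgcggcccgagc
GABBR1: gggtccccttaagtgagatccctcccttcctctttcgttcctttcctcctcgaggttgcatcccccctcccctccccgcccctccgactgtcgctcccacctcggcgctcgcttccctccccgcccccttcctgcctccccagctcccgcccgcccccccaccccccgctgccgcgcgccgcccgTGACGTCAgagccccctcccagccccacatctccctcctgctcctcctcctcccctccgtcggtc
TGACGTCA lies in the GABBR1 window with its first base at -65 from the start, and the GAAA pair lies in the GLRA2 window on the minus strand with its first base at -103. The first motif is in 1.65% and the other in 3.02% of the 35116 promoter windows of this length. Among the 48 receptor genes matched, only GABBR1 holds the first and only GLRA2 the other. GC content was 73.2% in the GABRQ window, 72.4% in that of GABBR1, 67.6% in that of GLRB and 50.8% in that of GLRA2, against a median of 58.0% over all windows. The GLRB window holds 28 CG pairs and that of GLRA2 holds 9, where the median is 11. The GABBR1 start of RefSeq lies inside the longer gene of GENCODE, which begins upstream of it. A match of letters is a description and not a binding site, and no binding was measured here.

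PTBP1, the targeted gene, ranged from 110.7 to 124.4 FPKM (the fragments of a gene divided by its length and by the depth of its library) in the controls, from 60.97 to 66.23 FPKM in the early knockdown and from 49.75 to 50.96 FPKM in the late knockdown. Its mean in the early knockdown was 55.2% of that of the controls. The summed FPKM of 20 neuronal marker genes was 490.4 to 527.3 in the controls, 562.4 to 592.2 in the early knockdown and 256.9 to 265.0 in the late knockdown, mostly from TUBB3 and NEFL. Of the 16 tested, SNAP25 was called higher and TUBB3, NEFL and NEFM lower in the late knockdown than in the controls. In that comparison 8.93% of all entries were called higher and 5.68% lower, the background for both this list and the next. MAP2 had means of 22.4 FPKM in the controls and 38.9 FPKM in the late knockdown. The sum of 10 astroglial and glioma markers was 4459 to 4586 in the controls, 4583 to 4879 in the early knockdown and 1387 to 1510 in the late knockdown, mostly from VIM, and of the 8 tested S100B was called higher and VIM and CD44 lower in the late knockdown. GFAP, the intermediate filament of astrocytes, ranged only from 0.109 to 1.15 FPKM, and ALDH1L1 did not exceed 0.0429 FPKM. Other members of that list were well above these and were not called. Means in the controls and the late knockdown were 105.7 and 144.8 FPKM for SOX2, 38.3 and 33.3 FPKM for SOX9, and 40.45 and 36.45 FPKM for NES. Of 12 skeletal muscle markers MYOG, MYF6 and MYH8 were listed at 0 in every library, while TNNT1 ranged from 28.1 to 99.06 FPKM. OLIG1, MOG and MAG, of 9 oligodendroglial markers, were at 0 likewise, and PDGFRA ranged from 1.31 to 2.45 FPKM. CD3E and AIF1 were at 0 among 12 blood and immune cell markers, of which CD68 ranged from 9.55 to 17.8 FPKM and CD14 from 0.434 to 1.11 FPKM. The part of these markers in the receptor values was not tested. Library sh-Ptbp1-3d replicate 3 stands apart from the other 8 in genes of low level, and the counts of called receptor genes are given with and without it. Means, SDs and fold changes of the early knockdown include it unless stated otherwise. In it 9 of the 20 neuronal markers stood out by the rule given further on for the receptors, among them STMN2, at 11.47 FPKM, and NEUROD6, at 6.03 FPKM, both listed at 0 in the other 8 libraries. STMN2, NEUROD6, INA, NEUROD2, ELAVL3, DCX and SLC17A7 count among the 16 tested markers only through this library. STMN2, NEUROD6 and INA were at 0 in the controls and the late knockdown, so they could not be called between these groups. In bulk RNA, fewer cells of a type and less RNA per cell cannot be told apart.

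Few of the receptor genes carried most of the signal. Of the 67 genes 8 averaged at least 1 FPKM over the 9 libraries, 45 averaged under 0.1 FPKM, and 7 were listed at 0 throughout, among them GRM6, GABRA6, GABRP, GABRR3, CHRNA2 and CHRNB3. The 8 were GABRE, GABRA3 and GABRQ of the GABA-A receptor, GABBR1, GLRB, GRIK2, CHRNA5 and CHRNB1, and together they held 96.1% ± 0.209 (SD, n = 3) of the summed FPKM of all 67 genes in the controls, 94.6% ± 2.30 in the early knockdown and 90.1% ± 0.603 in the late knockdown. The total of the 67 genes was 83.7 ± 5.90 FPKM in the controls, 84.4 ± 3.54 FPKM in the early knockdown and 76.7 ± 2.19 FPKM in the late knockdown. GABA-A subunits summed to 53.4 ± 3.99 FPKM in the controls and 31.7 ± 1.36 FPKM in the late knockdown. For glycine receptor subunits the same pair of sums was 5.15 ± 0.973 and 12.4 ± 0.826 FPKM, and for the GABA-B pair 6.06 ± 0.727 and 13.3 ± 1.0 FPKM. AMPA subunits summed to 0.111 ± 0.0450 FPKM in the controls and 2.47 ± 0.178 FPKM in the late knockdown. Nicotinic subunits summed to 9.87 ± 0.571, 9.01 ± 0.496 and 9.28 ± 0.718 FPKM in the 3 groups.

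**Figure D1:**
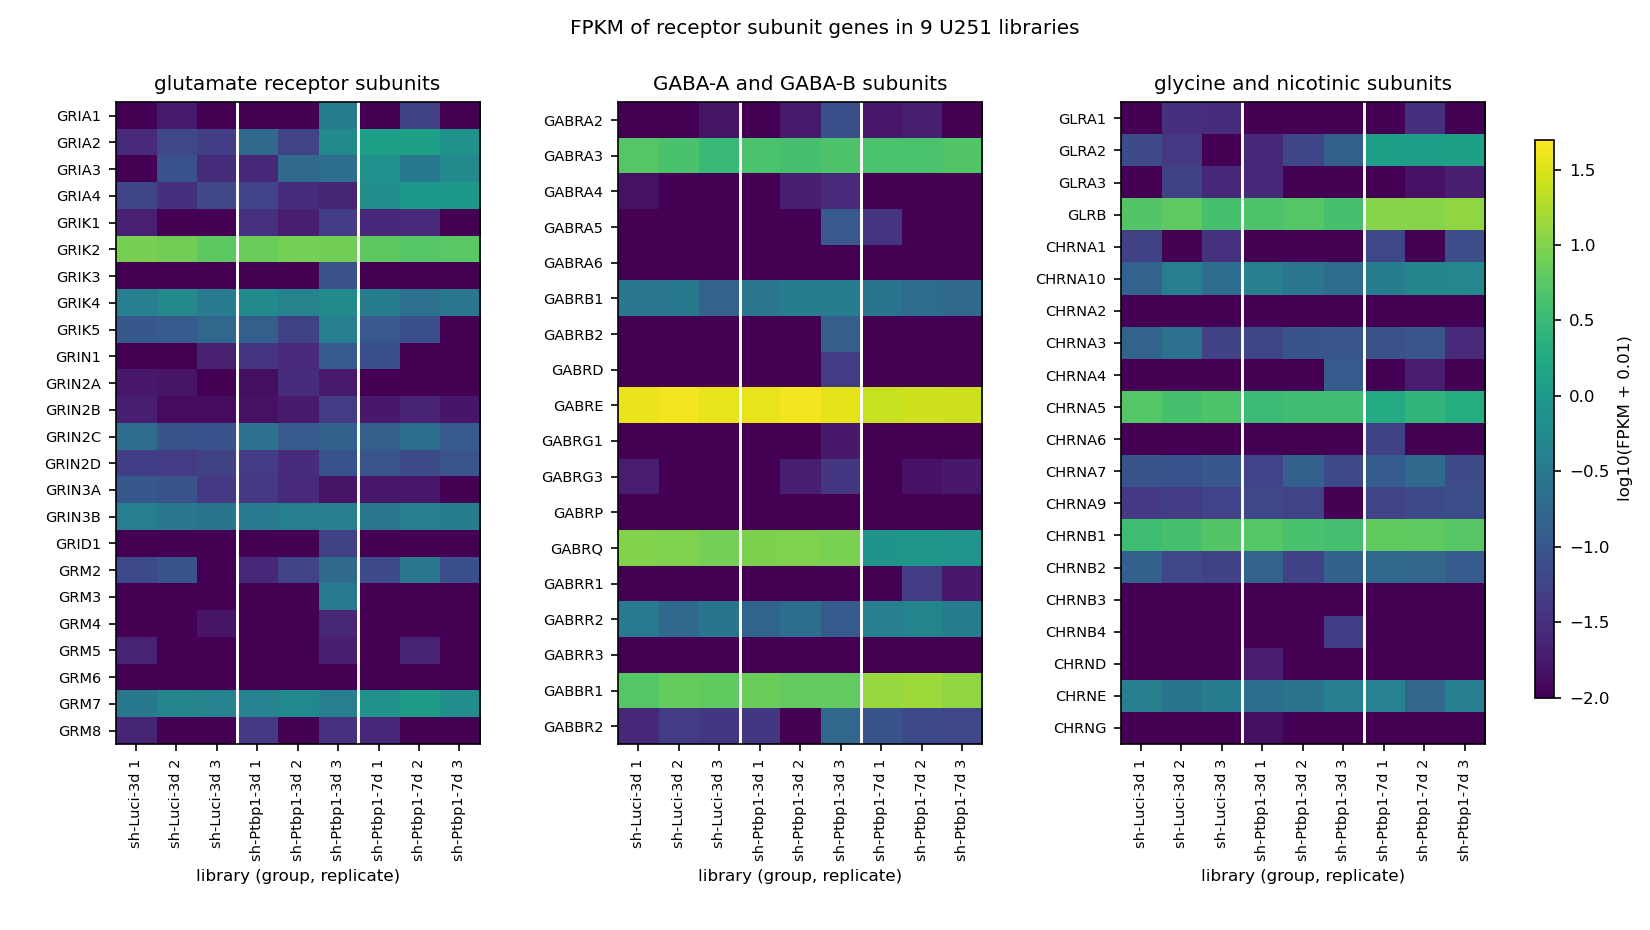
FPKM of receptor genes (rows, by receptor class, not all 67 shown) in the 9 libraries (columns, by group and replicate), as log10(FPKM + 0.01). Most rows are dark, the 8 genes of the highest level form bright rows, GABRQ darkens and GRIA2, GRIA4 and GLRA2 brighten in the late knockdown, and sh-Ptbp1-3d replicate 3 is lit in rows that are dark elsewhere.

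Differences were tested with limma on log2(FPKM + 0.1), on which changes of weakly expressed genes come out too small, for the 15551 entries with a mean of at least 0.1 FPKM. Of the receptor genes 22 passed this filter and 45 did not. GRIA3, GRIA4, GLRA2 and CHRNB2 passed it only through their level in the late knockdown, and GRIA2 through that level and through sh-Ptbp1-3d replicate 3. GRIK5 passed only through that replicate. Each count below therefore holds for the tested genes and not for all 67. A gene was called at a fold change above 2 with a Benjamini-Hochberg FDR below 0.05 in the early knockdown against the controls, and below 0.01 in both comparisons with the late knockdown. Gene positions are those of GENCODE v29 on GRCh38. Changes are given with limma's standard error (SE) and adjusted p. No source says that the libraries of a group came from separate cultures, so p-values measure only the spread between these samples. The smallest two-sided p that an exact permutation test of 3 against 3 libraries allows is 0.1.

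In the early knockdown against the controls, 0 of the 22 tested receptor genes were called by limma, beside 0.0129% of all entries tested. At an unadjusted p under 0.05 there were 2 of 22, GRIA2 and CHRNA5, beside 7.24% of all entries. PTBP1 itself was not called in the early knockdown against the controls. Its log2 change of -0.85 (SE 0.0725, limma adjusted p = 0.00314) passed the FDR threshold and not the fold threshold. The paper reports more differing genes between these groups than limma called here. The lack of called receptor genes therefore does not show that early changes were absent. In the late against the early knockdown, 5 of 22 were called, beside 14.2% of all entries: GRIA2, GRIA4, GLRA2 and GLRB were higher in the late knockdown (background 8.31%) and GABRQ was lower (background 5.9%). In the late knockdown against the controls, 8 of 22 were called, beside 14.6% of all entries. These were GRIA2, GRIA3, GRIA4, GLRA2, GLRB and GABBR1, higher (background 8.93%), and GABRQ and CHRNA5, lower (background 5.68%). On the FDR alone the counts were 0, 8 and 10 of 22, beside 0.0322%, 35.8% and 35.6% of all entries. Values of the groups did not overlap for 1, 15 and 12 of the 22 genes, beside 10.8%, 62.3% and 55.9% of all entries. Without sh-Ptbp1-3d replicate 3 the counts were 0, 5 and 8 of 21 tested genes, beside 0.0%, 13.6% and 14.7% of all entries, and the genes called were the same. At an unadjusted p under 0.05 the early knockdown then differed from the controls in 0 of 21. The share of all entries at that p was not taken for this fit, which has fewer early libraries. The fall in this count therefore cannot be set beside a background. The median log2 fold change of the 22 genes was 0.13, 0.17 and 0.33 in the same order of comparisons, where the median of all entries was 0.01, 0.09 and 0.10. The median of all entries moved to 0.18 in the late knockdown against the controls as TPM and to -0.01 after quantile normalization, which also took the share of higher genes among all called entries from 61.1% to 49.3%. Both comparisons of the late knockdown share its libraries, and their values are given side by side for each gene.

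**Figure D2:**
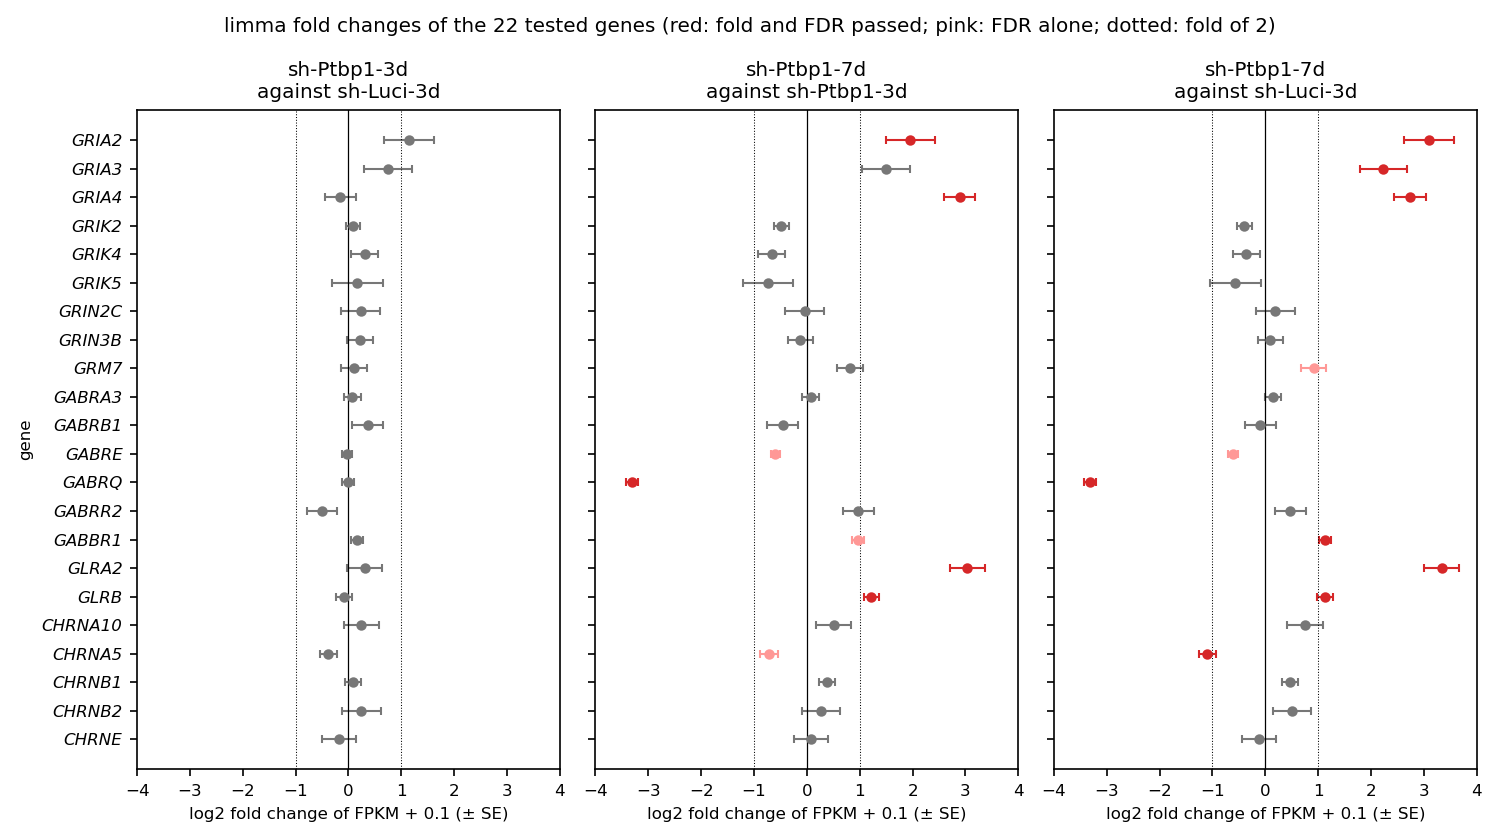
limma log2 fold changes (points) with standard errors (bars) of the 22 tested genes on the log2(FPKM + 0.1) scale, in the 3 comparisons. In the early knockdown no point is red, and in the late knockdown GABRQ lies near -3.3 while GRIA4 and GLRA2 lie between 2.74 and 3.34.

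The AMPA receptor genes were nearly silent in the controls and GRIA2, GRIA3 and GRIA4 lay between 0.307 and 1.24 FPKM in the late knockdown. GRIA4, which encodes GluA4 (chromosome 11 from 105609994 to 105982092), was found at 0.0493, 0.0213 and 0.0513 FPKM in the controls, at 0.0461, 0.0199 and 0.0139 FPKM in the early knockdown and at 0.672, 0.926 and 0.928 FPKM in the late knockdown. All 3 libraries of the late knockdown lay above the other 6. The log2 change of GRIA4 was 2.89 against the early knockdown (SE 0.297, limma adjusted p = 1.8e-05) and 2.74 against the controls (limma adjusted p = 2.68e-05). GRIA2 encodes GluA2, the subunit that makes AMPA receptors poorly permeable to calcium (chromosome 4 from 157204182 to 157366075). It was at 0.0178, 0.0505 and 0.0389 FPKM in the controls, at 0.174, 0.0477 and 0.557 FPKM in the early knockdown and at 1.22, 1.24 and 0.785 FPKM in the late knockdown. The late libraries overlapped neither other group, and within the early knockdown the value of replicate 3 was the highest.

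GRIA2 was higher in the late knockdown than in the controls by a log2 change of 3.10 (SE 0.469, limma adjusted p = 0.000283). Against the early knockdown the change was 1.96 (SE 0.469, limma adjusted p = 0.00533), and without replicate 3 of that group it was 2.53 (limma adjusted p = 0.00047). The call against the early knockdown held in 7 of 18 alternative fits, with limma adjusted p from 0.00047 to 0.0267, and was lost without any one of replicates 1 and 2 of the early knockdown or 1, 2 and 3 of the late knockdown, with changes from 1.45 to 2.15. GRIA2 was, in the early knockdown against the controls, the only tested receptor gene with a fold change above 2 and an unadjusted p under 0.05. Its log2 change there was 1.14 (SE 0.469, limma adjusted p = 0.652), and the groups overlapped. That change was 0.57 without sh-Ptbp1-3d replicate 3. GRIA3, the GluA3 gene (chromosome X from 123184153 to 123490915), was found at 0, 0.0766 and 0.0198 FPKM in the controls, at 0.0158, 0.180 and 0.208 FPKM in the early knockdown and at 0.726, 0.307 and 0.558 FPKM in the late knockdown. Its lowest late library still lay above every other library. The log2 change of GRIA3 was 2.24 against the controls (SE 0.452, limma adjusted p = 0.00194), which lost the call without sh-Ptbp1-7d replicate 1 (limma adjusted p = 0.0112), and 1.49 against the early knockdown, which missed the threshold (limma adjusted p = 0.0184). GRIA1, for GluA1, stayed at or under 0.0436 FPKM in 8 libraries and was at 0.353 FPKM in sh-Ptbp1-3d replicate 3.

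Within the summed AMPA signal in the late knockdown, GRIA2 held 46.5%, 49.2% and 34.6% in the 3 libraries, the rest falling mostly to GRIA4 and GRIA3. The same share ran from 26.5% to 35.4% in the controls and from 19.3% to 73.7% in the early knockdown. The AMPA sum of replicate 3 of the early knockdown, at 1.13 FPKM, was 4.68 times the mean of the other pair, at 0.235 and 0.248 FPKM.

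Kainate receptors were represented by GRIK2, which encodes GluK2 (chromosome 6 from 101181257 to 102070083). GRIK2 was at 8.84, 7.80 and 5.81 FPKM in the controls, at 7.39, 8.30 and 7.83 FPKM in the early knockdown and at 5.84, 5.35 and 5.56 FPKM in the late knockdown. The late libraries lay below all of the early knockdown but overlapped the controls, whose replicate 3 was low. Its log2 change of -0.48 against the early knockdown did not pass (SE 0.141, limma adjusted p = 0.0154). GRIK4, a high-affinity partner subunit, ranged from 0.227 to 0.585 FPKM and was not called in any comparison, and GRIK5, another such subunit, was at 0.389 FPKM in sh-Ptbp1-3d replicate 3 and at or under 0.168 FPKM in the other 8 libraries. GRIK1 and GRIK3 stayed under 0.1 FPKM in every library.

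NMDA receptor genes were at low levels in all groups. Their summed FPKM was 0.548 ± 0.158 in the controls, 0.668 ± 0.0971 in the early knockdown and 0.597 ± 0.0660 in the late knockdown (SD, n = 3 each). GRIN1, the obligatory GluN1 subunit, was at or under 0.0699 FPKM in 8 libraries and at 0.110 FPKM in sh-Ptbp1-3d replicate 3. The only tested genes were GRIN3B, from 0.260 to 0.405 FPKM, and GRIN2C, from 0.0755 to 0.236 FPKM, and neither was called.

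Among metabotropic glutamate receptors GRM7, a presynaptic receptor that lowers cAMP, was the only tested gene. It was at 0.306, 0.478 and 0.429 FPKM in the controls, at 0.421, 0.528 and 0.370 FPKM in the early knockdown and at 0.792, 1.07 and 0.694 FPKM in the late knockdown. The late libraries were the 3 highest. Its log2 change was 0.91 against the controls (SE 0.243, limma adjusted p = 0.00946), past the FDR threshold and short of the fold threshold, and 0.81 against the early knockdown (limma adjusted p = 0.0172). GRM3 was listed at 0 in 8 libraries and at 0.314 FPKM in sh-Ptbp1-3d replicate 3, and GRM2 was at 0.183 FPKM in that library and at 0.296 FPKM in sh-Ptbp1-7d replicate 2.

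GABA-A receptors of U251 cells were read almost wholly from 3 neighbouring genes of the X chromosome, GABRE (epsilon), GABRA3 (alpha 3) and GABRQ (theta). They held 99.0% ± 0.193 of the summed FPKM of the 19 GABA-A genes in the controls, 98.5% ± 0.965 in the early knockdown and 98.0% ± 0.293 in the late knockdown (SD, n = 3 each). Of the beta subunits, which most GABA-A receptors contain, GABRB1 ranged from 0.134 to 0.348 FPKM, while GABRB2 exceeded 0.1 FPKM only in sh-Ptbp1-3d replicate 3, at 0.120 FPKM. The gamma gene GABRG1 was above 0 only in that same library.

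GABRQ, whose theta subunit is restricted to few brain regions, had the largest fall among the tested receptor genes. The gene lies on chromosome X at 152638183 to 152657534. It was at 10.02, 9.57 and 8.39 FPKM in the controls, at 9.22, 9.49 and 9.04 FPKM in the early knockdown and at 0.807, 0.886 and 0.835 FPKM in the late knockdown. The controls and the early knockdown overlapped, and every late library lay far below them, at a mean of 9.11% of the early knockdown. The log2 change of GABRQ was -3.31 against the early knockdown (SE 0.106, limma adjusted p = 6.31e-09) and -3.32 against the controls (limma adjusted p = 6.15e-09), and both calls held in all 19 alternative fits. Between the early knockdown and the controls it was -0.01 (limma adjusted p = 0.995). Its share of the GABA-A sum was 17.5% ± 0.818 in the controls, 17.4% ± 0.765 in the early knockdown and 2.66% ± 0.0599 in the late knockdown.

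GABRE, the most abundant receptor gene per length, lies on chromosome X from 151953124 to 151974680. It was at 38.5, 42.4 and 37.0 FPKM in the controls, at 37.8, 43.0 and 35.4 FPKM in the early knockdown and at 24.2, 26.6 and 25.9 FPKM in the late knockdown. All late libraries were below the other 6. The log2 change of -0.59 against the early knockdown (SE 0.0918, limma adjusted p = 0.000338) and of -0.62 against the controls (limma adjusted p = 0.000255) passed the FDR threshold and not the fold threshold. GABRE made up 33.3% ± 0.943 of all receptor FPKM in the late knockdown and 46.9% ± 1.53 in the controls. GABRA3 (chromosome X from 152166234 to 152451358), the alpha subunit of this group, was at 5.31, 4.33 and 3.24 FPKM in the controls, at 4.42, 4.24 and 4.63 FPKM in the early knockdown and at 4.49, 4.52 and 5.02 FPKM in the late knockdown. The groups overlapped, and its log2 change of 0.08 against the early knockdown (limma adjusted p = 0.718) turned to -0.01 under median-ratio scaling and -0.07 under quantile normalization. GABRA3 lies between the other pair, 191.6 kb from GABRE on the same strand and 186.8 kb from GABRQ, which is read on the opposite strand. Per length, GABRQ was 1.89 to 2.59 times GABRA3 in the controls, 1.96 to 2.24 times in the early knockdown and 0.167 to 0.196 times in the late knockdown. Of the other GABA-A genes GABRR2, a retinal rho subunit, ranged from 0.102 to 0.457 FPKM and was not called.

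**Figure D3:**
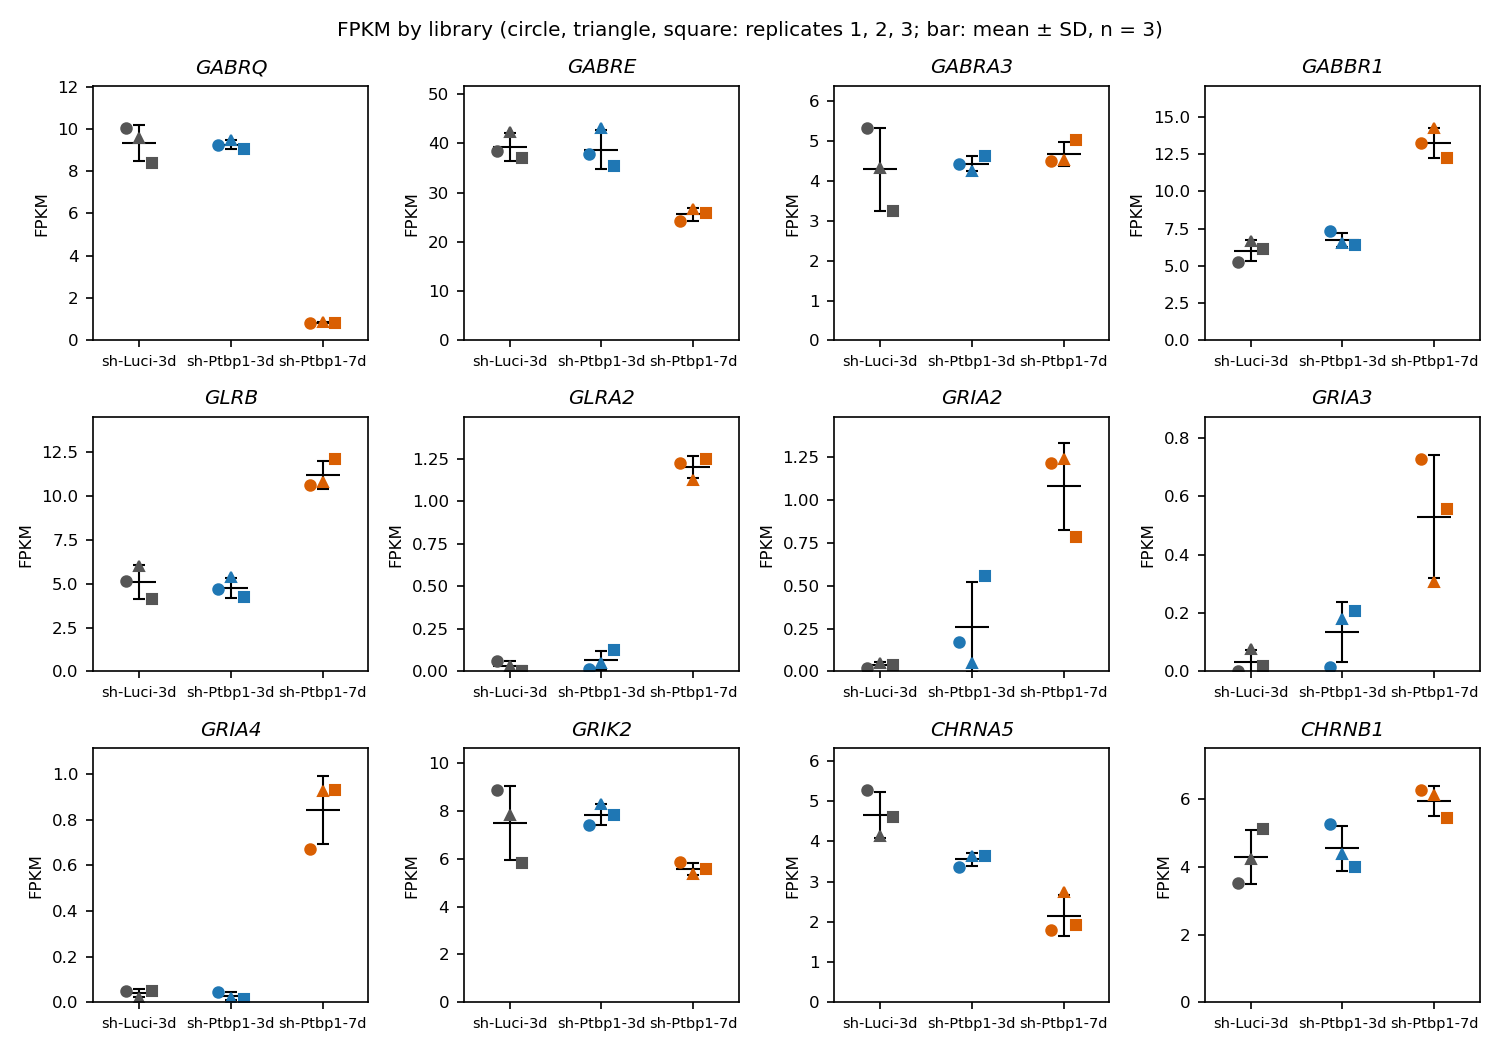
FPKM of 12 receptor genes in each library (circle, triangle and square for replicates 1, 2 and 3), with the mean and SD of each group (n = 3), each axis starting at 0. GABRQ drops to below 1 FPKM in the late knockdown, GABRA3 stays between 3.24 and 5.31 FPKM, and GLRB, GABBR1, GLRA2 and GRIA4 have their 3 highest libraries there.

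The GABA-B receptor is an obligate pair in which GABBR1 binds GABA and GABBR2 brings the complex to the surface and couples it to G proteins. GABBR1 (chromosome 6 from 29555629 to 29633976) was found at 5.26, 6.68 and 6.15 FPKM in the controls, at 7.31, 6.52 and 6.39 FPKM in the early knockdown and at 13.2, 14.2 and 12.2 FPKM in the late knockdown. The late libraries did not overlap the others. GABBR1 rose by a log2 change of 1.13 against the controls (SE 0.112, limma adjusted p = 1.45e-05), a call held in all 19 alternative fits. Against the early knockdown the change was 0.96 (SE 0.112, limma adjusted p = 4.59e-05), just under the fold threshold, which it passed as TPM, at 1.07. GABBR2 had 0.0807, 0.0586 and 0.0521 FPKM in the late knockdown and was at 0.162 FPKM in sh-Ptbp1-3d replicate 3, so that GABBR1 exceeded it by 164.1 to 242.9 times per length in the late knockdown. The annotated spans of OR2I1P and UBD overlap that of GABBR1, and the strand used in counting is not given in the sources used here.

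Both tested glycine receptor genes rose in the late knockdown. GLRB, the beta subunit that ties the receptor to gephyrin (chromosome 4 from 157076057 to 157172090), was found at 5.15, 6.004 and 4.12 FPKM in the controls, at 4.70, 5.37 and 4.22 FPKM in the early knockdown and at 10.6, 10.8 and 12.1 FPKM in the late knockdown. The controls and the early knockdown overlapped and lay below all late libraries. GLRB rose by a log2 change of 1.22 against the early knockdown (SE 0.144, limma adjusted p = 5.12e-05) and 1.13 against the controls (limma adjusted p = 8.56e-05), the latter 0.99 without sh-Luci-3d replicate 3. GLRA2, the alpha 2 subunit best known from the developing nervous system (chromosome X from 14529298 to 14731812), was found at 0.0598, 0.0316 and 0 FPKM in the controls, at 0.0167, 0.0493 and 0.128 FPKM in the early knockdown and at 1.23, 1.13 and 1.25 FPKM in the late knockdown. Its late libraries were close together and far above the rest. The log2 change of GLRA2 was 3.04 against the early knockdown (SE 0.330, limma adjusted p = 2.71e-05) and 3.34 against the controls (limma adjusted p = 1.32e-05), and both calls held in all 18 alternative fits that tested it.

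GLRB was 8.65 to 9.68 times GLRA2 per length in the late libraries. GLRA1 and GLRA3, the alpha subunits of adult spinal and sensory synapses, did not exceed 0.0424 FPKM. GLRB and GRIA2 are neighbours on chromosome 4, 32.1 kb apart on the same strand, and both were called higher in the late knockdown. Promoter windows of GLRB and GLRA2 are among those printed above, and neither motif is in both.

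Nicotinic receptors were carried by CHRNA5 and CHRNB1. CHRNA5, an accessory alpha subunit of neuronal receptors that does not bind the ligand itself (chromosome 15 from 78565520 to 78595269), was found at 5.27, 4.12 and 4.60 FPKM in the controls, at 3.36, 3.65 and 3.64 FPKM in the early knockdown and at 1.80, 2.75 and 1.93 FPKM in the late knockdown. The 3 groups did not overlap one another. CHRNA5 fell by 1.10 on the log2 scale against the controls (SE 0.163, limma adjusted p = 0.000261), and by 0.98, under the fold threshold, without sh-Ptbp1-7d replicate 1. Against the early knockdown its log2 change was -0.72 (limma adjusted p = 0.00404), past the FDR threshold alone, and in the early knockdown against the controls it was -0.38 (limma adjusted p = 0.679). CHRNA5 was the only tested receptor gene whose early knockdown and control libraries did not overlap. It overlaps CHRNA3 by 2218 bases on the opposite strand and the antisense gene AC027228.2, and without strand their reads cannot be told apart. CHRNA3, a ligand-binding partner of CHRNA5, ranged from 0.0189 to 0.229 FPKM.

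CHRNB1, the beta subunit of the muscle-type receptor (chromosome 17 from 7445061 to 7457707), was found at 3.51, 4.22 and 5.11 FPKM in the controls, at 5.28, 4.38 and 3.99 FPKM in the early knockdown and at 6.26, 6.11 and 5.43 FPKM in the late knockdown. The late libraries were the 3 highest. Its log2 changes of 0.38 against the early knockdown (SE 0.153, limma adjusted p = 0.0575) and 0.48 against the controls (limma adjusted p = 0.0237) did not pass. Other subunits of the muscle-type receptor were low, with CHRNA1, CHRND and CHRNG at or under 0.0655 FPKM and CHRNE from 0.159 to 0.423 FPKM. CHRNA7, which shares sequence with the fusion gene CHRFAM7A and is uncertain for that reason, ranged from 0.0450 to 0.171 FPKM. CHRNA4 was at or under 0.00999 FPKM in 8 libraries and at 0.102 FPKM in sh-Ptbp1-3d replicate 3.

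Receptor genes of low level were most often above 0 in 1 library of the early knockdown. In replicate 3 of that group 52 receptor genes were above 0, where the other 8 libraries had 34 to 41. Of the 60 receptor genes above 0 in some library, 22 (36.7%) had their highest value there, beside 7.5% of all entries above 0. Among the 38 with a mean above 0 and under 0.1 FPKM the count was 20 (52.6%), beside 21.0% of all such entries. GRIK3, GRID1, GRM3, GABRB2, GABRD, GABRG1 and CHRNB4 were above 0 in that library alone. By a rule of at least 0.1 FPKM there and over 3 times either all other libraries or the other early libraries, 10 of the 67 genes (14.9%) stood out, beside 2.26% of all entries.

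Among the 10 were GRIA1, GRIA2, GRIK5, GRIN1, GRM2, GRM3, GABRB2, GABBR2 and CHRNA4, and 8 of the 10 did not reach the level at which genes were tested. Their values in that library ran from 0.102 FPKM of CHRNA4 to 0.557 FPKM of GRIA2. The receptor genes of higher level gave no such contrast, since the summed GABA-A signal of replicate 3 was 0.922 times the mean of replicates 1 and 2, and that of the nicotinic genes 0.936 times. Neuronal markers moved with the low receptor genes: 13 of 20 had their highest value in the same library, and STMN2, NEUROD2, NEUROD6, INA, ELAVL3, ELAVL4, DCX, GAP43 and SLC17A7 met the same rule. Their part in the receptor values of that library was not tested.

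**Figure D4:**
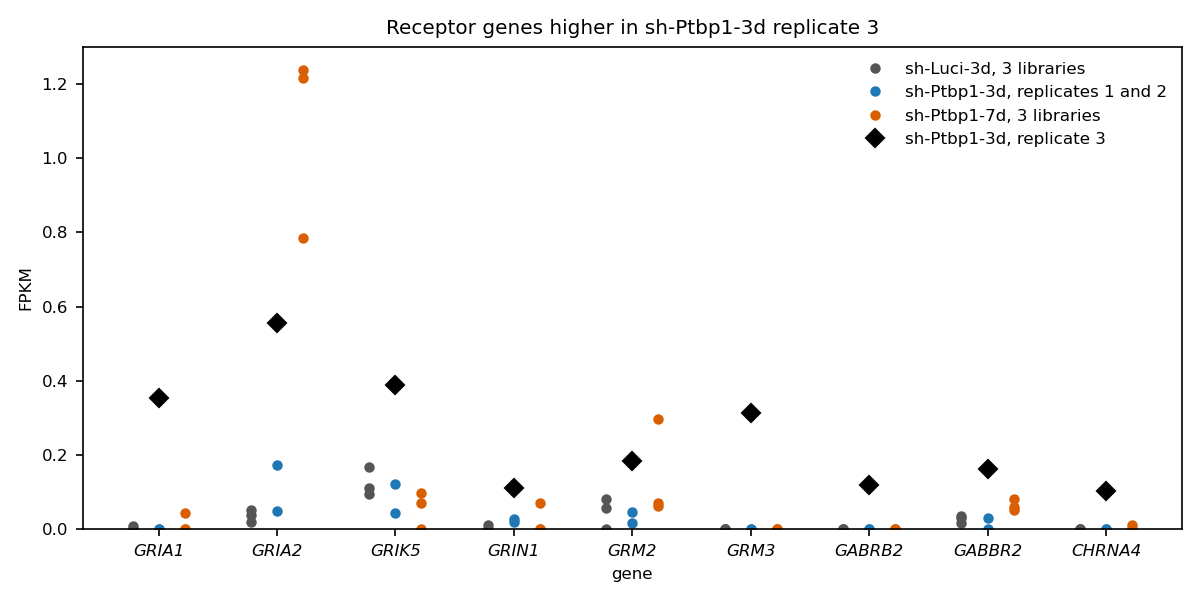
FPKM of 9 of the 10 receptor genes that stood out in sh-Ptbp1-3d replicate 3 (diamonds), with the other 8 libraries (points, coloured by group), on an axis from 0. Only for GRIA2 and GRM2 does any late library exceed the diamond.

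Genes that assemble, anchor or supply these receptors were read from 8 lists of 111 genes in all, of which 64 were tested. Of these, limma called 0 in the early knockdown against the controls, with 4 at an unadjusted p under 0.05, where 7.24% of all entries were. In the late against the early knockdown 10 were higher and 5 lower, 23.4% of those tested beside the 14.2% of all entries. Against the controls 11 were higher and 4 lower, 23.4% of those tested as well, beside 14.6% of all entries. The counts for single lists that follow are of late against early values and of few genes, and stand beside 8.31% higher and 5.9% lower among all entries. OLFM1 of the AMPA receptor auxiliary list, TMEM35A of the nicotinic list and SLC17A7 of the transporters are among the tested genes. They passed the filter on low values only through sh-Ptbp1-3d replicate 3. The 30 called changes of these genes kept their direction in every alternative fit, and 16 kept the call in each that tested them.

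Of the AMPA receptor auxiliary genes 2 of 7 tested were higher and 0 lower in the late than in the early knockdown. CACNG4, a TARP subunit that carries AMPA receptors to the membrane, was at 1.64, 1.39 and 1.69 FPKM in the controls, at 1.57, 1.73 and 1.98 FPKM in the early knockdown and at 7.41, 7.10 and 6.87 FPKM in the late knockdown. It rose by a log2 change of 1.96 against the early knockdown (SE 0.132, limma adjusted p = 7.91e-07). CNIH3, a cornichon that slows AMPA receptor closing, went from a mean of 0.264 ± 0.114 to 1.04 ± 0.246 FPKM, a log2 change of 1.68 (limma adjusted p = 0.00104). CNIH2 was called only against the controls, with 1.49 (limma adjusted p = 0.00171), and its early libraries overlapped the late ones through replicate 3, at 2.80 FPKM. Against the early knockdown its change was 0.78 (limma adjusted p = 0.0471), and without that library it was called, at 1.10 (limma adjusted p = 0.00868).

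Scaffold genes of glutamate synapses gave 2 higher and 0 lower among 12 tested. DLG4, the PSD-95 gene, whose transcript has an exon known to be repressed by PTBP1 and PTBP2, was at 8.68 ± 1.06 FPKM in the controls, at 9.93 ± 1.33 FPKM in the early knockdown and at 23.8 ± 3.03 FPKM in the late knockdown (SD, n = 3 each). It rose by 1.26 on the log2 scale against the early knockdown (SE 0.135, limma adjusted p = 2.57e-05). PTBP2 had means of 6.54 FPKM in the controls, 17.8 FPKM in the early knockdown and 27.1 FPKM in the late knockdown. The part of PTBP1 or PTBP2 in the DLG4 values was not tested. SHANK3, another scaffold of the postsynaptic density, rose by 1.26 as well (limma adjusted p = 0.000237), from 1.29 ± 0.0272 to 3.24 ± 0.174 FPKM. Among the inhibitory receptor partners, 1 of 12 tested was higher and 1 lower. KCTD12, an auxiliary subunit that makes GABA-B responses desensitize, fell from 8.91 ± 0.343 to 3.15 ± 0.561 FPKM, a log2 change of -1.49 (limma adjusted p = 7.27e-06), while GABARAPL1, a relative of the GABA-A trafficking protein GABARAP that also serves autophagy, rose from 22.7 ± 0.212 to 57.4 ± 6.03 FPKM, a log2 change of 1.33 (limma adjusted p = 4.91e-07). The 3 genes tested of the kainate, NMDA and delta partner list were not called.

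In the nicotinic assembly and anchoring list 2 of 10 tested genes were higher and 1 lower against the early knockdown. The higher pair belongs to the agrin pathway of the neuromuscular junction: DOK7, an adaptor of the kinase MUSK, went from 0.0111 ± 0.00345 to 0.950 ± 0.106 FPKM, a log2 change of 3.24 (limma adjusted p = 9.05e-06), and it passed the filter on low values only through its late level. LRP4, the agrin receptor, went from 0.357 ± 0.0209 to 0.983 ± 0.159 FPKM, a log2 change of 1.24 (limma adjusted p = 0.00101). PSCA, of the lynx-like family, was lower by a log2 change of -1.26 (limma adjusted p = 0.00395). The PSCA call held in 14 of 19 alternative fits and was lost without replicate 1 or 2 of the early knockdown or replicate 3 of the late knockdown, at -1.21, -1.20 and -1.04 (limma adjusted p from 0.0161 to 0.0169). TMEM35A, a chaperone of nicotinic receptors also known as NACHO, was listed at 0 in 8 libraries and at 0.949 FPKM in sh-Ptbp1-3d replicate 3. Of the muscarinic receptors, the G-protein-coupled acetylcholine receptors, CHRM3 rose from 0.619 ± 0.114 to 2.92 ± 0.450 FPKM, a log2 change of 2.07 (limma adjusted p = 9.67e-06), 1 of 2 tested.

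Of 11 tested enzymes 1 was higher and 2 lower: ACHE, acetylcholinesterase, rose by a log2 change of 1.51 (limma adjusted p = 0.000355), and GLDC of the glycine cleavage system and SHMT1, which interconverts serine and glycine, fell by 1.99 and 1.04 (limma adjusted p = 2.57e-05 and 8.35e-05). The SHMT1 change fell short of the fold threshold without sh-Ptbp1-3d replicate 1, at -0.99, without sh-Ptbp1-7d replicate 3, at -0.95, and as TPM, at -0.94. GLDC was at 1.35, 1.68 and 1.85 FPKM in the controls, at 1.503, 2.54 and 1.77 FPKM in the early knockdown and at 0.426, 0.352 and 0.437 FPKM in the late knockdown. Of 7 tested transporters 1 was higher and 1 lower. SLC1A3, the astroglial glutamate transporter EAAT1, was at 1.89, 2.47 and 1.61 FPKM in the controls, at 1.67, 1.91 and 2.48 FPKM in the early knockdown and at 7.69, 8.04 and 7.24 FPKM in the late knockdown, a log2 change of 1.89 against the early knockdown (limma adjusted p = 9.32e-06). SLC6A6, the taurine transporter, fell from 8.81 ± 0.623 to 3.06 ± 0.650 FPKM, a log2 change of -1.52 (limma adjusted p = 1.02e-05). The vesicular GABA and acetylcholine transporters SLC32A1 and SLC18A3 were listed at 0 in every library, and SLC17A7, the vesicular glutamate transporter of cortical neurons, was at 1.42 FPKM in sh-Ptbp1-3d replicate 3 and at or under 0.121 FPKM elsewhere.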

How the data were processed

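RNA of 9 U251 samples was sequenced on Illumina HiSeq by the authors. The authors deposited 1 FPKM value per gene and library. The submitters' processing notes name HISAT2 and GRCh38, while the counting program and its strand setting are not given in the sources used here. Whole reads could not be recovered from the deposited FPKM, so library depth is unknown and counting error has no interval here. The libraries sum to between 367400 and 404900 FPKM. Samples were grouped by their labels, and gene positions are of GENCODE v29.

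Values were taken as log2(FPKM + 0.1), and limma 3.58.1 (R 4.3.3) was fitted to all 3 groups at once with an intensity trend, after the code had been tested on simulated data. The Benjamini-Hochberg adjustment ran over all 15551 entries tested. The thresholds are those of the study's methods, and the threshold for the late against the early knockdown also served for the late knockdown against the controls. Genes named were those called, those averaging at least 1 FPKM, those with an unadjusted p under 0.05 and a fold change above 2 in the early knockdown, and those standing out in sh-Ptbp1-3d replicate 3. Other receptor genes named to give a class its range, or for how they passed the filter, were chosen after their values were seen. So were TMEM35A, OLFM1, STMN2 and the transporters at 0. Of the pathway genes, up to 3 called per list were named. The receptor genes and lists were chosen with earlier results of these data known. Deposited coordinates of assembled loci were not used, and protein sequences were not analysed here. Some receptor and marker genes of the lists count in the sums and counts but are not reported singly here. Alternatives were other pseudocounts (1 and 0.01), filters and scalings, a replicate block, the 2 groups alone, no trend, no fold threshold and leaving out each library. Figures were drawn with matplotlib 3.10.9.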

Additional observations from a re-analysis of the deposited data

How the results depend on the processing

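The 5 receptor genes called in the late against the early knockdown became 3 with a pseudocount of 1, 2 when only genes averaging 1 FPKM or more were tested (8 of them), 8 without the fold threshold, and 4 to 5 when single libraries were left out. The 8 called in the late knockdown against the controls became 4 with a pseudocount of 1, 4 with the stricter filter, and 6 to 8 without single libraries. In the early knockdown against the controls limma called 0 under every alternative run. The 13 called fold changes kept their direction in all 240 alternative values and lost the call in 19, of which 11 were GRIA2 in the late against the early knockdown. With a pseudocount of 1 calls of GRIA2, GRIA3, GRIA4 and CHRNA5 were lost, where that scale shrinks changes of low genes by its construction.

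Of the 66 fold changes of the 22 tested genes, 14 of the 53 not called and 0 of the 13 called reversed under some alternative. Those of the genes named by rule were the following 8. GABRA3 became -0.0099 (median-ratio scaling) and -0.0679 (quantile normalization) in the late against the early knockdown, and -0.0060 (quantile normalization) and -0.0375 to 0.312 (leaving out single libraries) in the late knockdown against the controls. In the early knockdown against the controls, leaving out single libraries gave ranges of -0.0387 to 0.2252 for CHRNB1, -0.1134 to 0.2361 for GABRA3, -0.1008 to 0.0401 for GABRE, -0.0815 to 0.0451 for GABRQ, -0.2263 to 0.0400 for GLRB and -0.0839 to 0.2152 for GRIK2. The cause was not tested.

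With the replicate number as a block, 0, 4 and 8 receptor genes were called in the 3 comparisons, and the gene no longer called was GRIA2. Same-numbered libraries of different groups correlated at -0.03 to 0.05 in their deviations, and differently numbered ones at -0.07 to 0.06. The numbers thus gave no sign of pairing, but such correlations cannot exclude that same-numbered samples shared a culture or infection. The FPKM values give no depth, which leaves the precision of values under 0.1 FPKM unknown.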
